A study of Mus musculus with 73 samples.

Results

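Cytosolic ribosomal protein genes were taken by name from the epithelial count table of a study of mouse jejunum. A member was any symbol that starts with Rpl or Rps and a digit, or Rplp0, Rplp1, Rplp2 or Rpsa, without pseudogene symbols ending in -ps and without the Rps6k kinases. The rule gave 86 of the 17399 genes in the table. Of these, 31 are core proteins of the small subunit, 42 are core proteins of the large subunit, 3 form the stalk of the large subunit, and 10 carry other symbols that the rule takes in (paralogs, retrogenes and name neighbours such as Rps19bp1, which encodes an Rps19 binding protein). The rule uses names and no measured value, though the gene family was picked with earlier results of these data known.

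The ribosome is built from ribosomal RNA and a set of proteins most of which are needed in equal amounts. Their mRNAs are short, abundant and regulated together, and their translation depends on a run of pyrimidines at the 5′ end that responds to mTOR signalling. In the intestine, proliferating crypt cells and lymphocytes are known to devote much of their mRNA to ribosomal proteins, while enterocytes turn to digestive and absorptive genes as they climb the villus. Villus tip telocytes are mesenchymal cells, marked by Pdgfra and Lgr5, that lie under the epithelium of the villus tip.

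The ablation experiment used male Lgr5(GFP-ires-DTR/+) mice, in which the diphtheria toxin receptor is expressed from the Lgr5 locus; the labels give their age as 4 months. All mice of both groups carry this allele. Mice received diphtheria toxin (DT, 50 µg/kg) or saline, and jejunal epithelium detached with EDTA was collected after 48 h. The study's sample sheet gives 2 batches, a and b, each with 2 DT and 2 control mice. The toxin acts on every cell with an active Lgr5 locus, so crypt base stem cells and villus tip telocytes are both targeted in this model. The other experiments used untreated male C57BL/6 mice with a labelled age of 3 months: single cells from 8 mice (A to H) sorted into plates, and stromal fragments cut by laser capture microdissection (LCM) from 4 zones in 5 mice.

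The ablation libraries held 748458 to 4210158 UMIs (unique molecular identifiers, each a counted mRNA molecule). The targeted gene Lgr5 was at 42.8, 69.5, 11.2 and 24.2 CPM (UMIs scaled to an equal library total) in control replicates 1 to 4 and at 47.2, 32.4, 6.37 and 13.2 in DT replicates 1 to 4, so the groups overlapped (log2 fold change -0.75 ± 0.32 SE, adjusted p = 0.26, edgeR quasi-likelihood test). By imaging, the paper reports that Lgr5+ cells were lost after DT. It reports Lgr5 back in crypts at 48 h but still absent from villus tips, so Lgr5 in these libraries does not measure the loss of telocytes. Control replicate 2 was the shallowest library and had the highest share of mitochondrially encoded transcripts, 13.2% against 5.14% to 8.45% in the others. Markers were mainly epithelial: all 12 epithelial markers were tested, and no mesenchymal marker of 12 passed the filter on low counts. Of the 10 endothelial genes, 2 passed it, Pecam1 and Ramp2, the latter at 50.8 to 140 CPM. Cdh5, Kdr, Flt1 and Emcn of that list had no UMI in any library. The endothelial list summed to 0.00695% to 0.0147% of UMIs. Immune markers were present, at 0.0202% to 0.247% of UMIs.

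To show what the members share at their start sites, windows of 30 bases around the annotated start (10 bases before it and 20 from it on) were read from RefSeq on GRCm38.p6. The members shown are those with the highest and the lowest difference after DT that have an entry, and 2 stalk genes. Capitals mark the longest unbroken run of C and T in each window, read 5′ to 3′ on the gene's strand.
Rpl39 (chrX:37085203-37085232, minus strand): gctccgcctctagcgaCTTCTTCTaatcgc
Rps13 (chr7:116334171-116334200, minus strand): caaacgtcggtgagtggcgtcaCTTCCTgt
Rpl27 (chr11:101442235-101442264, plus strand): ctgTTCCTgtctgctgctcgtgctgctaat
Rplp0 (chr5:115559457-115559486, plus strand): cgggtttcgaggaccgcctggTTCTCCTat
Rplp2 (chr7:141447641-141447670, plus strand): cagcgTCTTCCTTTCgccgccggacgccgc
Rpl13a (chr7:45128726-45128755, minus strand): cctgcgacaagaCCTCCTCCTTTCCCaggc
Rpl5 (chr5:107900518-107900547, plus strand): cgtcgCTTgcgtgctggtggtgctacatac
Rpsa (chr9:120127756-120127785, plus strand): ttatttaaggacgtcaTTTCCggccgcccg
The run was 14 bases long in Rpl13a, where it starts just after the annotated start, 10 in Rplp2, where it spans that start, and 3 in Rpl5.

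Entries were found for 65 of the 86 members. A run of at least 8 C or T lay in the window of 21 of them (32.3%), against 11.2% of all 27025 symbols in the table, each by its first listed start. A start base C followed by at least 4 further pyrimidines was found in 13 members (20%) and in 2.49% of all symbols. This count depends on the exact annotated base. Such a stretch starting within 5 bases of it on either side lay in 29 members (44.6%) and in 18.5% of all symbols. The 7 letters CCGGAAG, searched on both strands of the 300-base entry, were present in 25 members (38.5%) and in 9.12% of all symbols. The reverse strand of these letters can overlap a pyrimidine run. The median log2 fold change after DT, described below, was 0.70 in the 21 tested members with a long run and 0.71 in the 41 without. It was 0.78 in the 24 with CCGGAAG and 0.68 in the 38 without.

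The first comparison asked how the members differed between DT and control epithelium within batches. Members made up 2.50% and 1.65% of UMIs in control replicates 1 and 2 and 2.95% and 5.70% in DT replicates 1 and 2, all of batch a. In batch b, they made up 5.15% and 6.43% in control replicates 3 and 4 and 7.74% and 7.77% in DT replicates 3 and 4. Every DT library was above every control library of its batch, while the groups overlapped across batches. The mean was 3.93% ± 2.24 (SD, n = 4) in controls and 6.04% ± 2.28 (SD, n = 4) after DT, and the mean within-batch difference was 2.11 percentage points, or 1.42 without DT replicate 2. Counting error gave a 95% Wilson interval of at most 0.0348 percentage points to either side; such intervals cover counting error only.

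**Figure D1:**
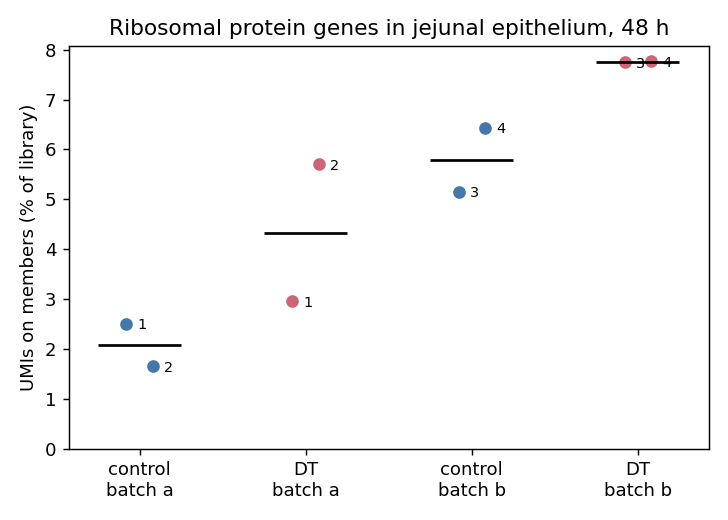
UMIs on the 86 members as a percent of each epithelial library (vertical axis), by treatment and batch; points are mice with their replicate number and bars are means of 2 mice. Both DT libraries lie above both controls in each batch, and batch b lies above batch a in either treatment.

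Gene by gene, no member passed the test. Of the 86 members, 83 had more than 1e-05 of the UMIs in at least 2 libraries and were tested among 8986 genes with edgeR's quasi-likelihood test, batch as a term and Benjamini-Hochberg adjustment. At an adjusted p below 0.05, 0 members were higher and 0 were lower after DT (percent called among all genes: 0.0223% higher and 0.334% lower). The smallest adjusted p among members was 0.199. At an unadjusted p below 0.05, 63 of 83 members were higher, against 8.82% of all genes. This count was 19 without DT replicate 2, 31 without control replicate 2, 32 without control replicate 3, 40 without control replicate 1, 22 with the replicate number as a block in place of batch and 2 without a batch term. The share of all genes at that unadjusted threshold was not counted in these other fits. DESeq2's Wald test called 3 members higher at an adjusted p below 0.05 (Rps3a1, Rpl27a and Rpl29; 0.501% of all genes in that fit), and edgeR without the filter on low counts called 35 (1.95% of all genes). The call therefore depends on the test and on the filter.

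The direction was shared. All 83 tested members had a log2 fold change above 0, against 50.5% of all genes, from 0.07 in Rpsa to 1.29 in Rpl29. Their median was 0.72, and the median of all tested genes was 0.00413. The 31 core small subunit genes had a median of 0.79, the 42 core large subunit genes 0.69 and the 3 stalk genes 0.69. In 56 members (67.5%), both DT libraries were above both controls in each batch, as in 12.4% of all genes. Only Rps21 and Rpl38 had every DT library above every control library across batches (1.47% of all genes). Left out singly, DT replicate 2 moved the median most, to 0.44, and without control replicate 2 it was 0.53.

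Among small subunit genes, Rps13 had the highest difference. It was at 130, 32.1, 265 and 322 CPM in control replicates 1 to 4 and at 173, 355, 398 and 560 in DT replicates 1 to 4 (log2 fold change 1.11 ± 0.38 SE, adjusted p = 0.23). Both DT libraries of each batch were above their controls.

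Rpsa, which encodes a small subunit protein also known as the laminin receptor precursor, stood at the other end. It was at 768, 1129, 619 and 868 CPM in controls and at 1031, 871, 629 and 1176 after DT. The groups overlapped in both batches, and the log2 fold change was 0.07 (95% interval -0.52 to 0.66). Within batch a alone it was -0.10 and within batch b 0.23.

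Among large subunit genes, Rpl29 had the highest difference and few molecules. It was at 19.3, 4.01, 212 and 167 CPM in controls and at 29.5, 99.6, 344 and 290 after DT (log2 fold change 1.29 ± 0.45 SE, adjusted p = 0.23). Rpl39, a short basic protein of the exit tunnel, was at 200, 89.5, 561 and 706 in controls and at 306, 860, 1055 and 745 after DT (1.19 ± 0.41 SE). Rpl27 followed with 1.06 ± 0.34 SE. In these 3 genes, both DT libraries of a batch were above both of its controls.

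The lowest values of the large subunit were those of Rpl5, Rpl13a and Rpl21, with log2 fold changes of 0.13, 0.23 and 0.38. Rpl5, which carries the smallest ribosomal RNA into the large subunit and binds Mdm2 when free, was at 247, 211, 372 and 510 CPM in controls and at 245, 402, 331 and 488 after DT. Its groups overlapped in both batches. Within batch b alone its log2 fold change was -0.15.

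The stalk proteins recruit translation factors to the ribosome. Rplp1 was the member with the most UMIs in controls, at 1143, 792, 1163 and 1704 CPM, and stood at 1280, 3268, 1652 and 2279 after DT (log2 fold change 0.78 ± 0.33 SE, adjusted p = 0.26). DT replicate 2 held by far its highest value. Rplp0 had a log2 fold change of 0.69 ± 0.32 SE and Rplp2 one of 0.43 ± 0.24 SE.

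Of the 10 members outside the core lists, 7 were tested. Rpl22l1, a paralog of Rpl22, had the highest log2 fold change of them (0.93 ± 0.30 SE), followed by Rps27l (0.83), a paralog of Rps27 known as a p53 target. Rpl6l, annotated as a processed pseudogene, had 0.75, Rps27rt 0.71, Rps19bp1 and Rpl36al 0.53 each, and Rpl7l1, a factor of ribosome assembly, 0.50. Rpl6l, Rps27rt and Rpl36al are near copies of Rpl6, Rps27 and Rpl36a, and how reads that fit both were counted was not given in the sources used here, so their values are uncertain. Rpl3l and Rpl10l had 0 UMIs in every library and Rpl39l had a UMI in control replicate 2 alone. Other proteins of the ribosome lie outside the name rule. Fau had a log2 fold change of 0.30 and Gnb2l1 (Rack1) one of 0.47.

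**Figure D2:**
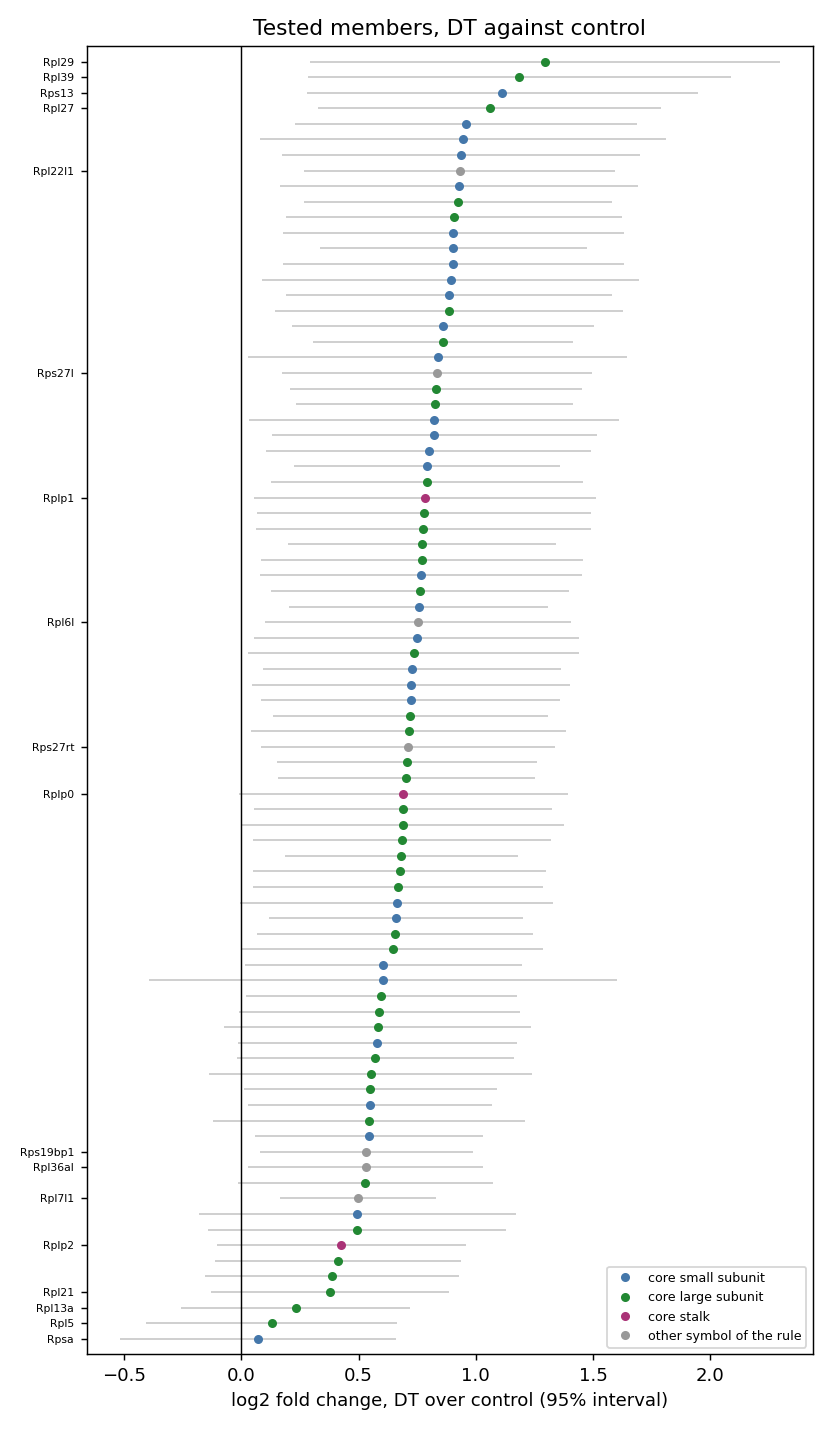
Log2 fold change of DT over control for the 83 tested members (points, coloured by subunit) with 95% intervals from edgeR (grey lines), ordered by value; the highest and lowest core members, the stalk genes and the members outside the core lists are labelled. All points lie above 0, from 0.07 in Rpsa to 1.29 in Rpl29, and no member passed an adjusted p of 0.05.

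The size of the difference varied between batches without passing a test. In batch a, 82 of 83 members were above 0 with a median of 1.09 (51.2% of all genes above 0), and in batch b 81 were above 0 with a median of 0.37 (49.7% of all genes). The difference was larger in batch a for 77 members, but 0 members passed a test of the batch by treatment interaction, and 0 had an unadjusted p below 0.05 in it (0% of all genes called). With 2 mice per group and batch, this interaction had little precision.

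The batches themselves differed more than the treatments. Batch b was above batch a in 62 of 83 members at an adjusted p below 0.05, against 21.1% of all genes, and below it in 0. The median difference was 1.09 on the log2 scale, from -0.31 in Rpsa to 3.13 in Rps18. Members with a larger batch difference also had a larger DT difference (Pearson r = 0.49 over 83 members, as a description over genes of the same 8 libraries). Rps18, Rpl29, Rps4x and Rpl15 were among those with the highest difference between batches, and Rpsa, Rps21, Rpl38 and Rps12 had the lowest signed values.

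Other measures also varied between libraries, not all in step with the members, and their part in the result was not tested. Depth differed too, and its part was not tested either. Control replicates 1 and 2 held 1447280 and 748458 UMIs, and DT replicates 1 and 2 held 1186817 and 2068297. Control replicates 3 and 4 held 4210158 and 3719115, and DT replicates 3 and 4 held 3766530 and 2270453. The shallowest library, control replicate 2, had the lowest share of members, while DT replicate 4, the shallowest of batch b, had the highest. The mitochondrial share lay between 5.39% and 13.2% in controls and between 5.14% and 8.00% after DT. The 20 proliferation genes summed to 0.0892% to 0.193% of UMIs in controls and 0.132% to 0.269% after DT, and the 14 immune markers to 0.0347% to 0.247% and 0.0202% to 0.137%. Transcripts of genes with short mRNAs also had higher values: tested genes outside the rule with a median transcript length up to 700 bases had a median log2 fold change of 0.39 (275 genes), those above 700 and up to 1000 bases 0.31 (474 genes), those above 1000 and up to 2000 bases 0.14 (2123 genes) and longer ones -0.079 (5692 genes). The members, with a median length of 764 bases, had 0.77, 0.72, 0.61 and 0.63 in the same length classes. In every class, the median of the members was above that of the other genes.

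Lists of genes that make or use ribosomes had medians of the same sign. All 74 tested mitochondrial ribosomal protein genes were above 0 (median 0.47), as were 53 of 62 ribosome biogenesis genes (median 0.33) and 34 of 40 translation factors (median 0.40). Of all genes, 50.5% were above 0. In these lists, 0 genes passed the test in either direction (0.0223% of all genes higher and 0.334% lower). The highest were Mrpl57 (0.94), the small nucleolar RNP protein Nop10 (0.90) and Eif4ebp1 (0.90), the mTOR-regulated inhibitor of cap-dependent translation. All 20 proliferation genes were above 0 (median 0.60), with Ube2c at 0.95, and 0 passed the test.

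Lists of differentiated cells had medians below 0. At an adjusted p below 0.05, 0.0223% of all genes were higher and 0.334% were lower after DT. Of 19 tested absorptive enterocyte genes, 0 were higher and 2 were lower at this threshold. These were Ada (log2 fold change -2.06, adjusted p = 0.011) and Nt5e (-2.66, adjusted p = 0.038), both purine metabolism genes of the villus tip. Of 6 tested tuft cell genes 5 were lower and of 7 Paneth cell genes 2 were lower, among them Mptx2 (-2.76, adjusted p = 0.017). All 7 Paneth genes and all 14 immune markers had values below 0, with medians of -1.75 and -0.54. In bulk samples, fewer cells of a type and less RNA per cell cannot be told apart.

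The second comparison asked what share of mRNA the same genes took in single cells. The table held 12698 wells, of which 352 belonged to a plate that matches no labelled sample and were not used. After a filter on depth (from 400 to 8000 UMIs) and on detected genes (250 or more), 2347 cells remained, with a median of 1359 UMIs. They were clustered with the 20 members among the variable genes held out, and clusters were named from marker lists. Epithelial-like clusters held 1616 cells, mesenchymal-like 337 and immune-like 200. A cluster of 194 cells was left unnamed, with 22.1% of its UMIs on mitochondrially encoded genes.

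The sort gates did not match the classes in every case. The gate labelled CD45Singlets gave 72 epithelial-like cells and 0 immune-like cells, and the gate labelled CD31 gave 8 epithelial-like cells. The gates labelled PdgfraSinglets and PdgfraSingletsPop3 held 575 and 260 epithelial-like cells and almost all immune-like cells. All 384 well barcodes recur on more than 1 plate by design of the method, so a cell was identified by its plate and barcode. Class names follow the markers: the 12 mesenchymal markers took 415 UMIs per 10000 in mesenchymal-like cells and 0.224 in epithelial-like cells, and the 14 immune markers took 536 in immune-like cells and 0.368 in epithelial-like cells.

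Of the 86 members, 83 had a row in the single-cell table. Summed per mouse, members made up 3.41% of epithelial-like UMIs in mouse A, 4.48% in B, 2.27% in C, 2.44% in D, 5.63% in E, 0.914% in F, 1.27% in G and 2.84% in H. They made up 8.35%, 8.22%, 8.44% and 9.13% of mesenchymal-like UMIs in mice A, B, C and G. In immune-like cells, they made up 13.2% in mouse E and 13.7% in mouse G. The ranges did not overlap: the class means were 2.91% ± 1.58 (SD, n = 8), 8.54% ± 0.404 (SD, n = 4) and 13.5% ± 0.412 (SD, n = 2). The sum of mesenchymal-like cells in mouse G rests on 5 cells and 3988 UMIs, with a 95% Wilson interval of 8.27% to 10.1%.

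**Figure D3:**
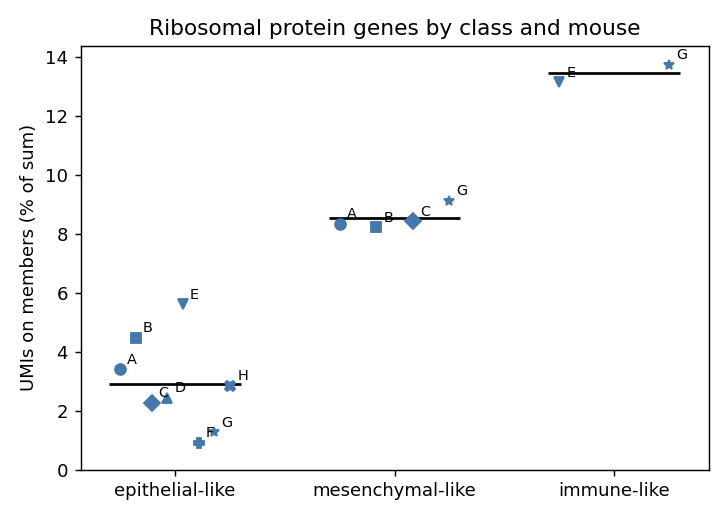
UMIs on the members as a percent of all UMIs summed per mouse and class (vertical axis); each symbol is a mouse, lettered A to H, and bars are means over mice. Epithelial-like sums lie between 0.914% and 5.63%, mesenchymal-like between 8.22% and 9.13%, and immune-like at 13.2% and 13.7%.

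Most members followed this order within mice. In 70 of 83 members (84.3%), the level in UMIs per 10000 was higher in mesenchymal-like than in epithelial-like cells in each of the 4 mice with both classes, as in 5.04% of all 10664 genes. The mesenchymal-like sums of mice A and G held only 9016 and 3988 UMIs, and a gene without a UMI there could not count. Genes with few UMIs were thus less likely to count. How far abundance shaped this contrast was not tested. In 78 members, the immune-like level was above the epithelial-like one in both mice with these classes, as in 31.2% of all genes. The only mouse with immune-like and mesenchymal-like sums was G, where 60 of 83 members were higher in immune-like cells, against 52.4% of all genes.

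Rps23, which lines the decoding centre, ranged from 1.03 to 5.10 UMIs per 10000 over the 8 epithelial-like sums (median 2.48). It was at 14.4, 10.0, 11.2 and 30.1 in the mesenchymal-like sums of mice A, B, C and G, and at 18.4 and 14.7 in the immune-like sums of E and G. Rps15a ranged from 0.485 to 3.68 in epithelial-like sums (median 1.55), was at 6.65, 9.17, 8.68 and 7.52 in mesenchymal-like sums and at 23.4 and 24.9 in immune-like sums. The 3 classes did not overlap in Rps15a. Rplp1 ranged from 0.554 to 23.1 in epithelial-like sums (median 7.35), was at 27.7, 27.8, 29.9 and 20.1 in mesenchymal-like sums and at 53.2 and 47.8 in immune-like sums. Its highest epithelial-like sum, that of mouse E, was above the mesenchymal-like sum of mouse G.

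A few members departed from the order. Rps27l ranged from 1.64 to 3.86 UMIs per 10000 in epithelial-like sums and was at 1.05 and 1.31 in immune-like sums, below each of the 8 epithelial-like values. Rpl28 was at 5.55, 8.40, 8.86 and 5.02 in mesenchymal-like sums, and those of mice A and G lay within its epithelial-like range of 2.18 to 7.84. Rpsa ranged from 0 to 8.08 in epithelial-like sums, was at 9.98, 11.2, 10.5 and 2.51 in mesenchymal-like sums and at 17.5 and 19.8 in immune-like sums. The value of 2.51 came from the 5 cells of mouse G.

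The test over sums, edgeR's quasi-likelihood test with mouse as a term on 10664 genes, gave few calls. Between epithelial-like and mesenchymal-like cells, 0 members were higher and 0 were lower in epithelial-like cells at an adjusted p below 0.05 (7% and 11.4% of all genes). At an unadjusted p below 0.05, 9 of 83 members were lower and 0 higher, against 1872 lower and 1301 higher of all 10664 genes. DESeq2 called 23 lower and 1 higher (Rps27l), against 3.84% and 12.7% of all genes. Without mouse G, edgeR called 6 members lower, or 7.23% of them, against 11.7% of all genes. The members had a median log2 fold change of -1.11 and 81 of 83 were below 0 (57% of all genes), while all genes had a median of -0.33. Other scalings moved the median of all genes, to between 0.063 and 0.43 with DESeq2's size factors or with the members left out of the scaling. Leaving out single mice under the same scaling also moved it, to between 0.22 and 0.83. It stayed below 0 without the mouse term (-0.49) and with a clustering that may use the members (-0.33). The difference of the members from it is therefore given too. It was -0.78 here and between -0.53 and -1.26 under all alternatives run. Leaving out single mice gave medians of the members from -0.87 to -0.12, all above the -1.11 of the full fit. Without mouse C the median of the members was -0.12, but -0.95 relative to all genes. The lowest values were those of Rps23 (-1.94 ± 0.77 SE, adjusted p = 0.061), Rps21 (-1.85) and Rps15a (-1.84), and the highest were Rps27l (0.69) and Rpl28 (0.03).

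Between epithelial-like and immune-like cells, 46 of 83 members were lower in epithelial-like cells and 0 were higher (7.58% and 3.56% of all genes). Of the called members, 20 belonged to the core small subunit, 23 to the core large subunit and 2 to the stalk, and the last was Rps27rt. The largest differences were those of Rps15a (log2 fold change -4.99 ± 1.06 SE, adjusted p = 0.0002), Rpl27 (-4.05), Rps13 (-3.81), Rplp2 (-3.80) and Rps21 (-3.64). The median of the members was -2.82, or -2.25 relative to that of all genes, and 81 of 83 were below 0 (59% of all genes). This median was the lowest of all fits run. The alternatives gave -2.77 to -1.18, among them -1.92 without mouse F, which had no immune-like sum. Relative to all genes, they gave -2.75 (without mouse E) to -1.18 (without mouse G). The count of lower members was 21 with the members left out of the scaling (4.61% of all genes lower in that fit) and 51 with DESeq2 (3.11%). It was 7, or 8.43% of members, without the filter on low counts (2.05% of all genes) and without the doublet gates (3.84%). It was 1, Rps15a in both cases, without mouse B (3.16%) or without mouse G (1.14%). Without mice C and E, left out singly, it was 15 (3.85%) and 11 (2.02%). Rpl10a, Rpl7a and Rps29 were the core members closest to 0, at -1.28, -1.70 and -1.78.

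Between mesenchymal-like and immune-like cells, 0 members were higher and 0 were lower (0.0563% and 0.188% of all genes). At an unadjusted p below 0.05, 13 of 83 members were lower and 0 higher, against 556 lower and 325 higher of all 10664 genes. DESeq2 called Rpl27 and Rps15a, 2 members, lower (0.356% of all genes). The median was -1.70 and 81 of 83 members were below 0, against 56.6% of all genes. Without mouse G, the only mouse with both classes, the median was -0.28. The lowest were Rpl27 (-3.41 ± 1.21 SE, adjusted p = 0.31) and Rps15a (-3.16), and Rps19bp1 (1.36) and Rpl7l1 (0.94) were the highest.

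Depth, gate and mitochondrial share moved with the classes, and their part in the result was not tested. The median cell had 1546 UMIs in epithelial-like, 1022 in mesenchymal-like and 666 in immune-like cells, and 6.03%, 2.77% and 1.78% of the summed UMIs were mitochondrially encoded. Immune-like sums of at least 5 cells came from 2 mice only, while mice D, F and H gave such sums for epithelial-like cells alone. Among other lists, ribosome biogenesis genes were lower in epithelial-like than in immune-like cells in 8 of 49 tested genes and higher in 0, and translation factors in 5 of 40 and 0. Of all genes, 7.58% were lower and 3.56% were higher in that comparison. Of 78 tested mitochondrial ribosomal protein genes, 0 were called in either direction between these classes.

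Epithelial-like cells differed widely among themselves. Over single cells, the share of UMIs on members had a median of 1.26% in epithelial-like cells, and its central 80% ran from 0.348% to 8.69%. In mesenchymal-like cells the median was 8.49% (5.00% to 11.4%) and in immune-like cells 13.2% (8.67% to 18.2%). The clusters below are described and not tested, since the genes that define them come from the same cells.

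At the low end, a cluster of 158 cells led by Slc28a2, Ada, Clca4a and Nt5e had 0.503%, 0.380% and 0.467% of UMIs on members in mice B, C and D. A cluster of 173 cells led by Ubd, Pxdc1 and Enpp3 had 0.748%, 0.509% and 0.615% in the same mice. At the high end, a cluster of 109 cells led by histone genes and Stmn1, both known for cycling cells, had 13.9%, 13.2%, 16.0% and 8.01% in mice B, D, E and H. A cluster of 151 cells led by Krt19, Ms4a18 and Ppp1r1b ranged from 4.27% to 9.86% over 6 mice. Within mouse B, the share was thus 0.503% in the Slc28a2, Ada and Nt5e cluster and 13.9% in the histone and Stmn1 cluster. The latter reached the range of the immune-like clusters. Histone genes did not mark a high share everywhere. Another epithelial-like cluster, of 40 cells, was also led by histone genes, without Stmn1 among its leading genes. It had 1.44%, 1.20%, 0.955% and 0.843% in mice B, C, D and G.

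A cluster of 26 cells led by the goblet cell genes Zg16, Tff3, Clca1 and Muc2 had 8.99% in mouse B and 4.04% in mouse H, the mice with at least 5 of its cells. The mesenchymal-like clusters had medians from 5.68% (led by Thbs2, Fibin and Rgs5) to 9.38% (led by Inmt, Mfap5 and Cd248). Mice contributed unequally to these clusters, and a cluster of 79 cells came from mouse H alone.

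**Figure D4:**
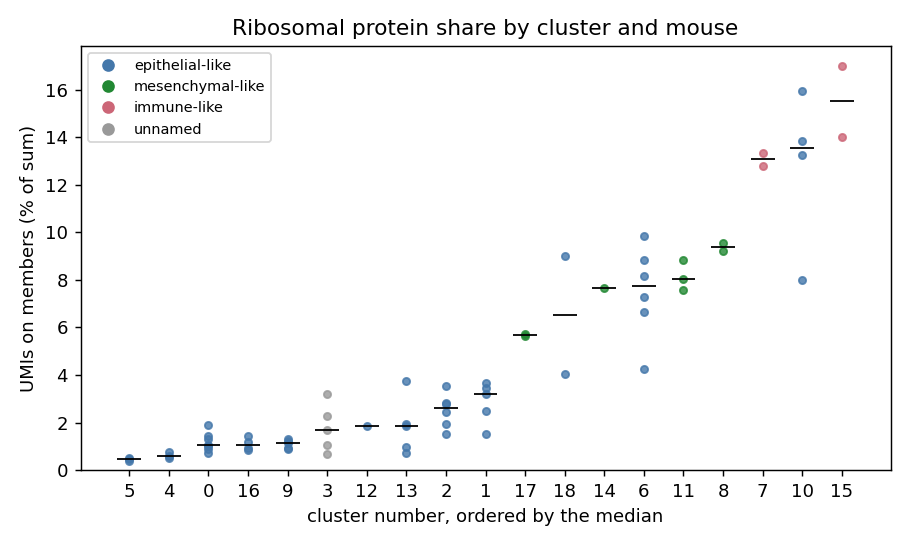
UMIs on the members as a percent of UMIs (vertical axis) for each cluster, ordered by its median; points are mice with at least 5 cells in the cluster, bars are medians, and colours give the class. Epithelial-like clusters span from below 1% to above 13%, while mesenchymal-like clusters lie between 5.63% and 9.56%.

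The pool of ribosomal protein mRNA had a related make-up in the 3 classes. Each member's share of the pool correlated with r = 0.72 (Spearman 0.67) between epithelial-like and mesenchymal-like cells, 0.67 (0.60) between epithelial-like and immune-like cells and 0.78 (0.70) between mesenchymal-like and immune-like cells. These are descriptions over 83 genes that share libraries.

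In LCM stroma, 79 members had a row and 77 were tested by limma among 13497 genes, on TPM values rescaled (ppm) after removal of enterocyte genes. The removal took out 545 genes and no member. Shares of the rescaled values were above those of the deposited TPM in every mouse and zone. The depth of these samples is unknown. Members made up 19.4%, 13.5% and 23.6% of the rescaled values in the crypt of mice 1 to 3. At the villus tip they made up 22.6%, 13.3% and 16.0% in the same mice, and 1.93% and 4.35% in mice 4 and 5, which had no crypt sample. On this scale, the tip was above the crypt in mouse 1 and below it in mice 2 and 3. Of the deposited TPM, members made up 10.7%, 7.40% and 11.7% in the crypt of mice 1 to 3. At the tip they made up 9.91%, 6.97% and 7.85% in these mice, below the crypt in each, and 1.25% and 2.70% in mice 4 and 5. The low mean at the tip thus came mainly from the mice without a crypt sample.

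No member passed the test between villus tip and crypt: 0 of 77 had an adjusted p below 0.05 (0% of all genes, of which 439 had an unadjusted p below 0.05), and 7 had an unadjusted p below 0.05. Their median log2 fold change was -1.53 with 3 above 0 (51.3% of all genes above 0). It was -0.82 with mouse as a block and -0.66 without mouse 4. Rps21 (-2.91), Rpl32 (-2.67) and Rps3a1 (-2.64) were lowest, with standard errors of 1.63, 1.13 and 1.19. The members above 0 were Rpl3l (0.96), a paralog of Rpl3 known from muscle, Rps25 (0.06) and Rpl37a (0.03).

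**Figure D5:**
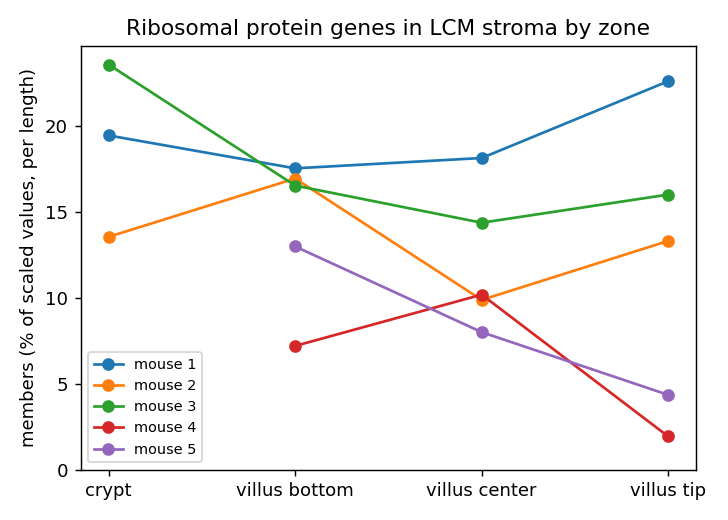
Members as a percent of rescaled LCM values, which are per transcript length (vertical axis), in 4 zones from crypt to villus tip; each line is a mouse and points are means of its sections. Mice 1 to 3 stay between 9.87% and 23.6%, and mice 4 and 5, without crypt samples, reach 1.93% and 4.35% at the tip.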

How the data were processed

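Epithelium from 8 ablation mice, single cells from 8 mice and 29 LCM samples from 5 mice were analysed. The authors deposited UMI counts per gene for the epithelium and the single cells, made with zUMIs on GRCm38 and not normalized, and per the labels reads were demultiplexed with bcl2fastq 2.15.0.4. How reads fitting several copies were counted is not given in the sources used here. For LCM, the authors deposited TPM per gene, a unit scaled by transcript length. Batches come from the study's sample sheet. Mice were the replicates.

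Epithelial counts were compared with edgeR 4.0.16 (TMM, robust quasi-likelihood, batch and treatment as terms), with DESeq2 1.42.0 as an alternative. Cells were clustered with Seurat 5.3.0, and UMIs were summed per mouse and class (at least 5 cells, genes with at least 20 UMIs over the sums) and tested with edgeR (mouse and class as terms). Doublets were not called, and cells of the doublet gates stayed in. LCM values, without enterocyte genes (those making up 50% of control UMIs), were rescaled to the sum of genes below 1% of a sample, averaged per mouse and zone, and compared with limma 3.58.1 on log2(ppm + 1), for genes with a zone mean above 5 ppm; fold changes on this scale understate the change of low genes. All p-values were adjusted over all genes tested. Each member's or gene's transcript length is a median over GENCODE coding transcripts of GRCm38.

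The numbers of control and DT samples were checked for pairing: deviations of same-numbered samples from their group means correlated with 0.60, 0.41, 0.65 and 0.58, and same-numbered mice were treated as pairs in an alternative fit. Within batches, which the numbers share, the correlations were -0.14 and -0.06. Tests were tried on simulated data with 200 changed genes: edgeR recovered 60.0% at a log2 change of 1 and 99.5% at 2 in the ablation design (8986 genes), 0% at 2 and 65.5% at 4 for epithelial-like against mesenchymal-like sums (10664 genes), and limma 0% at 2 and 32.0% at 4 in the LCM design (13497 genes). The members and gene lists were chosen with earlier results of these data known. Named were the members past the threshold where they were 10 or fewer, otherwise the 8 with the largest change in each direction; the 4 highest and 4 lowest core members, Rpsa, the stalk genes, tested members outside the core lists, the members with the most UMIs in controls, Fau and Rack1, and up to 3 genes of each other list. Members shown for their batch differences, within-mouse levels or closeness to 0 were chosen after their values were seen. Some items that the rule names are not reported here.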

Additional observations from a re-analysis of the deposited data

Results flagged for a closer look

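Rplp2 in control replicate 4, at 913 CPM (UMIs scaled to an equal library total), lay far above the other 3 controls, which were between 585 and 629. Of 50 groups of samples looked at in this way, 1 stood out, and chance gives about 5% of groups.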

How the results depend on the processing

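In the ablation samples, the count of members called higher was 3 with DESeq2 (0.501% of all genes) and 35 without the filter on low counts (1.95%), and 0 under the other scalings, without a batch term and with the replicate number as a block in place of batch (replicate block). With that block, the median log2 fold change of members was 0.69, and it ranged from 0.44 to 0.87 when single libraries were left out, with no member called. The share of UMIs on members then differed by 1.42 to 2.80 percentage points (chosen after seeing the data). Rpl5 changed sign to -0.15 in batch b alone and ranged from -0.076 (without DT replicate 2) to 0.30 without single libraries. Rpsa changed sign to -0.10 in batch a alone and ranged from -0.16 (without DT replicate 4) to 0.24, with -0.02 without control replicate 1 and -0.07 without control replicate 3. The cause was not tested.

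For epithelial-like against mesenchymal-like sums, 15 members were lower with DESeq2 size factors (11.9% of all genes), 23 with DESeq2 (3.84%; 1 higher, against 12.7%) and 54 without the mouse term (no replicate block; 25.4%). Leaving out single mice gave 0 to 6 lower, 0 to 1 higher (Rps27l without mouse D) and medians from -0.87 to -0.12, the latter without mouse C. For epithelial-like against immune-like sums, lower members numbered 21 with scaling without the members (4.61% of all genes), 7 without the filter (2.05%), 70 without the mouse term (15.1%), 20 with cells from 200 UMIs (4.96%), 16 with classes from each cell's markers (4.35%) and 7 without doublet gates (3.84%), and DESeq2 gave 1 higher (10.5%). The medians were -1.59 with DESeq2 size factors, -1.61 with DESeq2, -1.83 without the filter, -1.73 from 200 UMIs, -1.86 with each cell's markers and -1.87 without doublet gates. Leaving out single mice gave 1 to 30 lower and medians from -2.55 to -1.18. For mesenchymal-like against immune-like sums, 1 was lower with DESeq2 size factors (0.9% of all genes) and 2 with DESeq2 (0.356%), with medians of -0.72 and -0.73, and medians from -2.04 to -0.28 without single mice. The mesenchymal-like share exceeded the epithelial-like one by 5.20 to 6.02 percentage points without single mice. In LCM samples, 0 members were called under each alternative, with medians of -0.82 with the mouse block (replicate block) and -2.09 to -0.66 without single mice. Single-cell sums of few UMIs and LCM values of unknown depth limit what these tests can call.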
